A study of Mus musculus with 4 samples.

Results

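The 10 genes described here carry glucose into a cell, take it through steps of glycolysis and move the lactate that follows. They were taken by symbol from the 30828 genes listed in the single-cell matrices, and all 10 were present. They are the glucose transporters *Slc2a1* (GLUT1) and *Slc2a3* (GLUT3), the hexokinases *Hk1* and *Hk2*, the platelet-type phosphofructokinase *Pfkp*, the pyruvate kinase *Pkm*, the lactate dehydrogenase subunits *Ldha* and *Ldhb*, and the monocarboxylate transporters *Slc16a1* (MCT1) and *Slc16a3* (MCT4). Hexokinase traps glucose in the cell as glucose 6-phosphate, phosphofructokinase commits it to glycolysis, pyruvate kinase ends the pathway, and lactate dehydrogenase converts pyruvate and lactate into each other. In the testis, Sertoli cells, the somatic nurse cells of the seminiferous tubule, are known to take up glucose and release lactate, which germ cells use as a fuel. LDHA favours the making of lactate and LDHB the return to pyruvate, while MCT4 is mostly an exporter of lactate and MCT1 carries it in either direction.

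The cells came from testes of mice at postnatal day (P) 8. The sample labels call the genotypes wild-type and Cnot3 KO. By the study's methods, control mice were *Cnot3*flox/flox and *Cnot3*-cKO mice were *Cnot3*flox/flox; *Ddx4*-creER, so both carried the floxed alleles of *Cnot3*, a subunit gene of the CCR4-NOT deadenylase complex. Both received 4-hydroxytamoxifen from P1, until P3 by those methods. The labels give P1 and P2 as the last day for the control samples and P3 and P4 for the *Cnot3*-cKO samples, so that by the labels dosing and genotype cannot be told apart. The recombinase was driven by the germ cell gene *Ddx4*, so that deletion was aimed at germ cells and not at the somatic cells described here. CD9+/THY1+ cells were sorted to enrich germ cells and sequenced as 3′ tags on a droplet platform, where each captured molecule is counted once as a unique molecular identifier (UMI). Of the 4 samples, the 2 controls are merged in 1 matrix and the 2 *Cnot3*-cKO samples in another. The sample titles mark 1 of each pair NS and the other NOV, and the study names NextSeq and NovaSeq instruments, but neither samples nor runs could be separated. Each genotype was therefore 1 library, there is no spread between animals, and no test between genotypes was possible. Every interval below is a 95% interval for counting error only.

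The control library held 181550221 UMIs and the *Cnot3*-cKO library 168770743. After the filters stated in the study (up to 10% mitochondrial UMIs, UMIs and genes within 2 SD of the library mean), 5615 and 6034 cells remained. Clusters were named from fixed marker lists, without use of the 10 genes or of 75 related genes for clustering, and are called germ-like (241 control and 71 *Cnot3*-cKO cells), Sertoli-like (1400 and 1725), peritubular myoid-like (1201 and 1471), stroma-like (1218 and 1133) and endothelial-like (33 and 37). Clusters without a clear name enter no class. The largest of them, led by *Oxtr* and *Foxl2*, held 871 control and 954 *Cnot3*-cKO cells and scored highest on the stroma list. The stroma-like cells are thus those of the cluster led by *Clec3b* and *Mfap5* only. In the wider set described below, a cluster led by *Oxtr* was named stroma-like too. The summed level of 8 germ cell markers was 2738 and 2964 UMIs per 1000000 UMIs of the class (CPM) in germ-like cells and 25.8 and 20.6 in Sertoli-like cells, control first, and that of 9 Sertoli markers was 9031 and 9017 in Sertoli-like cells. *Rhox5*, 1 of these 9, was nearly absent from the Sertoli-like cells at 1.57 and 1.01 CPM. The sort and the filter on UMIs set the shares of the classes, which are not compared. A wider set, with up to 20% mitochondrial UMIs and no upper bound, held 1333 and 560 germ-like cells and was used for the germ cell stages. Median UMIs of germ-like cells were 31950 and 20265 under the filters of the study and 42268 and 46152 in the wider set. *Cnot3* itself stood at 69.4 and 38.9 CPM in germ-like cells, a log2 ratio of -0.83 (-1.25 to -0.44) for *Cnot3*-cKO over control, and at 64.5 and 67.2 in Sertoli-like cells, but whether the counted 3′ tag lies in the deleted part is not given in the sources used here. In that order, control before *Cnot3*-cKO, pairs of values are given throughout.

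In GRCm38 with the GENCODE M21 annotation, all 10 are annotated as protein-coding genes. The glucose transporters are *Slc2a1* (ENSMUSG00000028645.11, chr4:119108711-119137983, plus strand) and *Slc2a3* (ENSMUSG00000003153.10, chr6:122727809-122801640, minus strand). The hexokinases are *Hk1* (ENSMUSG00000037012.18, chr10:62268855-62379908, minus strand) and *Hk2* (ENSMUSG00000000628.10, chr6:82725025-82774454, minus strand). *Pfkp* (ENSMUSG00000021196.14, chr13:6579768-6648777, minus strand) and *Pkm* (ENSMUSG00000032294.17, chr9:59656368-59679375, plus strand) follow in the pathway. The lactate dehydrogenases are *Ldha* (ENSMUSG00000063229.15, chr7:46841475-46855627, plus strand) and *Ldhb* (ENSMUSG00000030246.11, chr6:142490249-142507957, minus strand), and the monocarboxylate transporters are *Slc16a1* (ENSMUSG00000032902.1, chr3:104638668-104658462, plus strand) and *Slc16a3* (ENSMUSG00000025161.16, chr11:120948480-120960868, plus strand). Other annotated genes lie across some of these spans, and their reads could be counted with the member or drop out. On the opposite strand these are *Gm12867* and *Gm12868* at *Slc2a1*, *Hk1os* at *Hk1*, *Gm17034* at *Hk2* and *Pitrm1* at *Pfkp*, and on the same strand *Mir1957a* at *Slc2a1*, *Gm4482* at *Slc2a3*, *Gm49759* at *Pkm*, and *Gm43581* and *Gm43585* at *Slc16a1*. *Ldha* has 2 named pseudogenes in the annotation, so its counts are uncertain to that extent.

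To ask where in the testis each gene was expressed, levels were set side by side across classes. A level is the UMIs of a gene summed over the cells of a class, in CPM. Since each molecule gives 1 tag, levels were not divided by transcript length, and each gene was compared with itself across classes. The glucose transporter *Slc2a1*, the main carrier of the blood-tissue barriers, was highest in endothelial-like cells, at 213 CPM in control (173 to 258) and 205 CPM in *Cnot3*-cKO (166 to 251). Sertoli-like cells held 14.9 and 11.5 CPM, germ-like cells 13.1 and 6.04, myoid-like cells 6.13 and 3.53 and stroma-like cells 3.61 and 2.23. The endothelial level was above that of Sertoli-like cells 14.3-fold in control and 17.8-fold in *Cnot3*-cKO, while the ranges of the other classes over both libraries overlapped from 1 neighbour to the next. *Slc2a3*, the high-affinity transporter, was low in every class. Its largest pair of values was 4.98 and 7.17 CPM in myoid-like cells, and the ranges of all neighbouring classes overlapped.

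**Figure D1:**
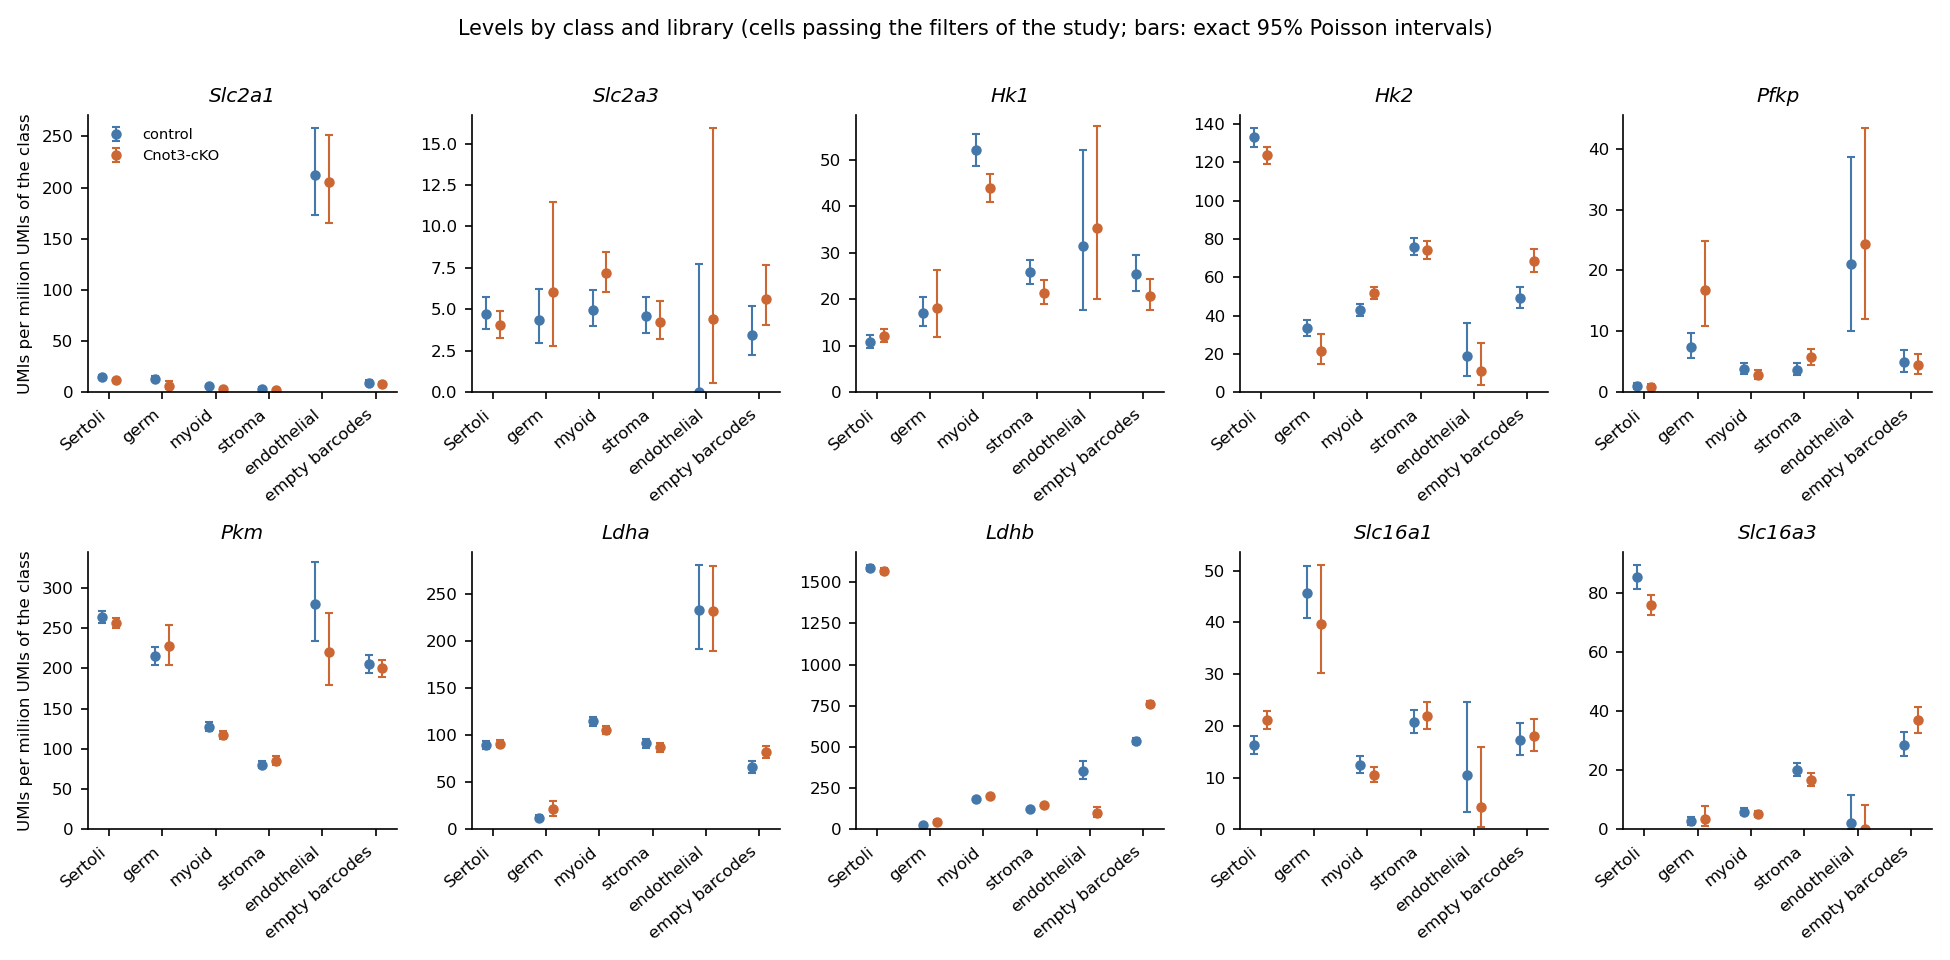
Level of each of the 10 genes in CPM (vertical axis) by class of cell and in empty barcodes (horizontal axis), for the control and the *Cnot3*-cKO library, with bars for the 95% Poisson interval (counting error only). *Ldhb* stood at 1588 and 1568 CPM in Sertoli-like and 29.1 and 43.6 in germ-like cells, and *Slc2a1* at 213 and 205 in endothelial-like cells, control first.

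The hexokinases split between classes. *Hk2*, the inducible form, was highest in Sertoli-like cells at 133 CPM in control (128 to 138) and 124 CPM in *Cnot3*-cKO (119 to 128), followed by stroma-like cells (75.9 and 74.3 CPM), myoid-like cells (43.0 and 51.8), germ-like cells (33.3 and 21.5) and endothelial-like cells (18.9 and 11.0). *Hk1*, the housekeeping form, was lowest in Sertoli-like cells (10.8 and 12.2 CPM) and highest in myoid-like cells at 52.1 CPM in control (48.8 to 55.6) and 43.9 CPM in *Cnot3*-cKO (41.0 to 46.9). Germ-like cells held 17.1 and 18.1 CPM of *Hk1*, and none of the ranges of neighbouring classes overlapped for either hexokinase. Endothelial-like cells, with 475027 and 453292 UMIs in all, gave wide intervals for *Hk2* and *Hk1*. For *Hk2*, the log2 ratios of germ-like over endothelial-like cells had intervals of -0.14 to 1.96 and -0.41 to 2.68, which held 0. The interval of *Hk1* in Sertoli-like over germ-like cells of *Cnot3*-cKO (-1.14 to 0.06) held 0 too.

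*Pfkp* was close to absent from Sertoli-like cells, at 0.998 CPM in control (0.618 to 1.53) and 0.890 CPM in *Cnot3*-cKO (0.558 to 1.35). Germ-like cells held 7.48 and 16.8 CPM and endothelial-like cells 21.1 and 24.3, whereas myoid-like and stroma-like cells held 3.84 and 2.79 and 3.68 and 5.74. The level in germ-like over Sertoli-like cells was 7.49-fold in control and 18.9-fold in *Cnot3*-cKO. The 2 other phosphofructokinase genes went the opposite way, since the liver-type *Pfkl* stood at 71.1 and 70.7 CPM in Sertoli-like and 2.68 and 2.01 in germ-like cells, and the muscle-type *Pfkm* at 15.1 and 16.5 and 3.95 and 6.71. *Pkm* was high in Sertoli-like (264 and 256 CPM), endothelial-like (280.0 and 221) and germ-like cells (215 and 228), whose ranges overlapped in that order, and lower in myoid-like (127 and 118) and stroma-like cells (80.1 and 85.4). The tags do not separate the PKM1 and PKM2 isoforms.

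*Ldhb* was highest in Sertoli-like cells, which held 1588 CPM in control (1571 to 1605) and 1568 CPM in *Cnot3*-cKO (1553 to 1584). Germ-like cells were lowest, at 29.1 CPM in control (25.2 to 33.3) and 43.6 CPM in *Cnot3*-cKO (33.7 to 55.6), and the level of Sertoli-like over germ-like cells was 54.6-fold in control and 35.9-fold in *Cnot3*-cKO. Endothelial-like cells held 356 and 101 CPM, myoid-like cells 187 and 200.2 and stroma-like cells 124 and 149. *Ldha* was highest in endothelial-like cells (234 and 232 CPM), then in myoid-like (115 and 105), Sertoli-like (89.7 and 91.0) and stroma-like cells (91.4 and 87.1), with overlapping ranges for the last pair, and again lowest in germ-like cells at 12.4 CPM in control (9.96 to 15.3) and 21.5 CPM in *Cnot3*-cKO (14.7 to 30.3). The lactate dehydrogenase genes were thus both at their lowest in germ-like cells.

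The monocarboxylate transporters divided between Sertoli-like and germ-like cells. *Slc16a3* stood at 85.5 CPM in control (81.6 to 89.6) and 76.0 CPM in *Cnot3*-cKO (72.6 to 79.5) in Sertoli-like cells and at 2.68 and 3.36 CPM in germ-like cells, from 19 and 5 UMIs. Stroma-like cells were next, with 20.2 and 16.8 CPM, and myoid-like cells held 5.95 and 5.23. *Slc16a1* was highest in germ-like cells, at 45.7 CPM in control (40.9 to 51.0) and 39.6 CPM in *Cnot3*-cKO (30.1 to 51.1). Sertoli-like cells held 16.3 and 21.1 CPM of it, stroma-like cells 20.8 and 21.9 and myoid-like cells 12.4 and 10.6. *Bsg*, which encodes the basigin partner that both transporters need at the membrane, stood at 335 and 334 CPM in Sertoli-like and 365 and 319 in germ-like cells.

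RNA free in the suspension enters every droplet, and its profile was read from barcodes with at most 100 UMIs. In that profile, *Ldhb* stood at 537 and 761 CPM and *Slc16a3* at 28.6 and 36.9, both above their levels in germ-like cells. Estimated free RNA made up 3.98% and 2.96% of the UMIs of germ-like cells. In germ-like cells the 9 Sertoli markers summed to 105 and 197 CPM, and the part of such RNA in the low *Ldhb*, *Hk2* and *Slc16a3* levels of single germ-like cells was not tested.

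A gene was counted as different between 2 classes where it differed at least 2-fold in the same direction in both libraries, over genes with at least 100 UMIs. Sertoli-like over germ-like cells, *Hk2* (3.99-fold in control and 5.75-fold in *Cnot3*-cKO), *Ldha* (7.22-fold in control and 4.24-fold in *Cnot3*-cKO), *Ldhb* and *Slc16a3* (31.9-fold in control and 22.7-fold in *Cnot3*-cKO) were higher. These are 4 of the 10 genes, beside 22.1% of all genes tested, and 1 gene, *Pfkp*, was lower, beside 19.5%. In the wider set, where 21.0% of genes were higher and 28.8% lower, the same 4 genes were higher and *Slc16a1* was lower as well as *Pfkp*. *Slc16a1* was higher in germ-like than Sertoli-like cells 2.80-fold in control and 1.88-fold in *Cnot3*-cKO under the filters of the study, so that it missed the threshold in 1 library.

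Against myoid-like cells, *Slc2a1* (2.43-fold in control and 3.26-fold in *Cnot3*-cKO), *Hk2* (3.09-fold in control and 2.39-fold in *Cnot3*-cKO), *Pkm* (2.07-fold in control and 2.18-fold in *Cnot3*-cKO), *Ldhb* (8.52-fold in control and 7.83-fold in *Cnot3*-cKO) and *Slc16a3* (14.4-fold in control and 14.5-fold in *Cnot3*-cKO) were higher in Sertoli-like cells, beside 22.2% of genes, and *Hk1* and *Pfkp* were lower, beside 15%. Against stroma-like cells 4 of the genes were higher in Sertoli-like cells (*Slc2a1*, *Pkm*, *Ldhb* and *Slc16a3*), beside 20.6%, and *Pfkp* was lower, beside 16.0%. Against endothelial-like cells *Hk2*, *Ldhb* and *Slc16a3* were higher, beside 15.8%, and *Slc2a1*, *Hk1* and *Ldha* lower, beside 9.01%. Against endothelial-like and germ-like cells, *Slc16a3* passed the minimum through the Sertoli-like cells alone, since endothelial-like cells held 1 and 0 UMIs of it and germ-like cells 19 and 5. The same holds for *Hk2* against endothelial-like cells, whose 18.9 and 11.0 CPM rest on far fewer UMIs than the minimum. *Slc2a1* against stroma-like cells, at 3.61 and 2.23 CPM there, also passed through the Sertoli-like cells alone. *Pfkp*, at 0.998 and 0.890 CPM in Sertoli-like cells, passed through the myoid-like or stroma-like cells alone. Germ-like over myoid-like cells, *Slc16a1* was higher (3.68-fold in control and 3.74-fold in *Cnot3*-cKO), beside 29.2% of genes, and *Hk1*, *Ldha* and *Ldhb* lower, beside 21.7%. Germ-like over stroma-like cells, *Slc2a1*, *Pfkp* and *Pkm* were higher, beside 28.1%, and *Hk2*, *Ldha*, *Ldhb* and *Slc16a3* lower, beside 23.3%. Of these, *Slc2a1* passed the minimum through the germ-like cells alone and *Slc16a3* through the stroma-like cells alone. Germ-like over endothelial-like cells, *Slc16a1* was higher, beside 25.5%, and *Slc2a1*, *Ldha* and *Ldhb* lower, beside 13.4%, among the 7 genes tested. *Slc16a1*, at 10.5 and 4.41 CPM in endothelial-like cells, passed the minimum there through the germ-like cells alone. Myoid-like and stroma-like cells differed in *Hk1*, higher in myoid-like cells, beside 5.76%, and in *Slc16a3*, lower there, beside 7.47%.

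Where 2 genes encode alternative forms of 1 step, the share of a form among the UMIs of both was compared across classes. *Ldhb* made up 94.7% in control (94.4 to 94.9) and 94.5% in *Cnot3*-cKO (94.3 to 94.7) of lactate dehydrogenase UMIs in Sertoli-like cells, 70.1% and 67.0% in germ-like, 61.9% and 65.5% in myoid-like and 57.5% and 63.1% in stroma-like cells. The intervals of Sertoli-like cells stood apart from those of all 4 other classes. In free RNA, *Ldhb* stood above its level in germ-like cells, and the part of free RNA in the germ-like share was not tested. *Hk2* made up 92.5% and 91.0% of hexokinase UMIs in Sertoli-like cells and 45.2% and 54.1% in myoid-like cells. *Slc16a3* made up 84.0% in control (82.4 to 85.5) and 78.3% in *Cnot3*-cKO (76.6 to 79.9) of monocarboxylate transporter UMIs in Sertoli-like cells, 49.4% and 43.5% in stroma-like cells and 5.54% and 7.81% in germ-like cells, so that the leading transporter changed from *Slc16a3* to *Slc16a1* between Sertoli-like and germ-like cells in both libraries.

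**Figure D2:**
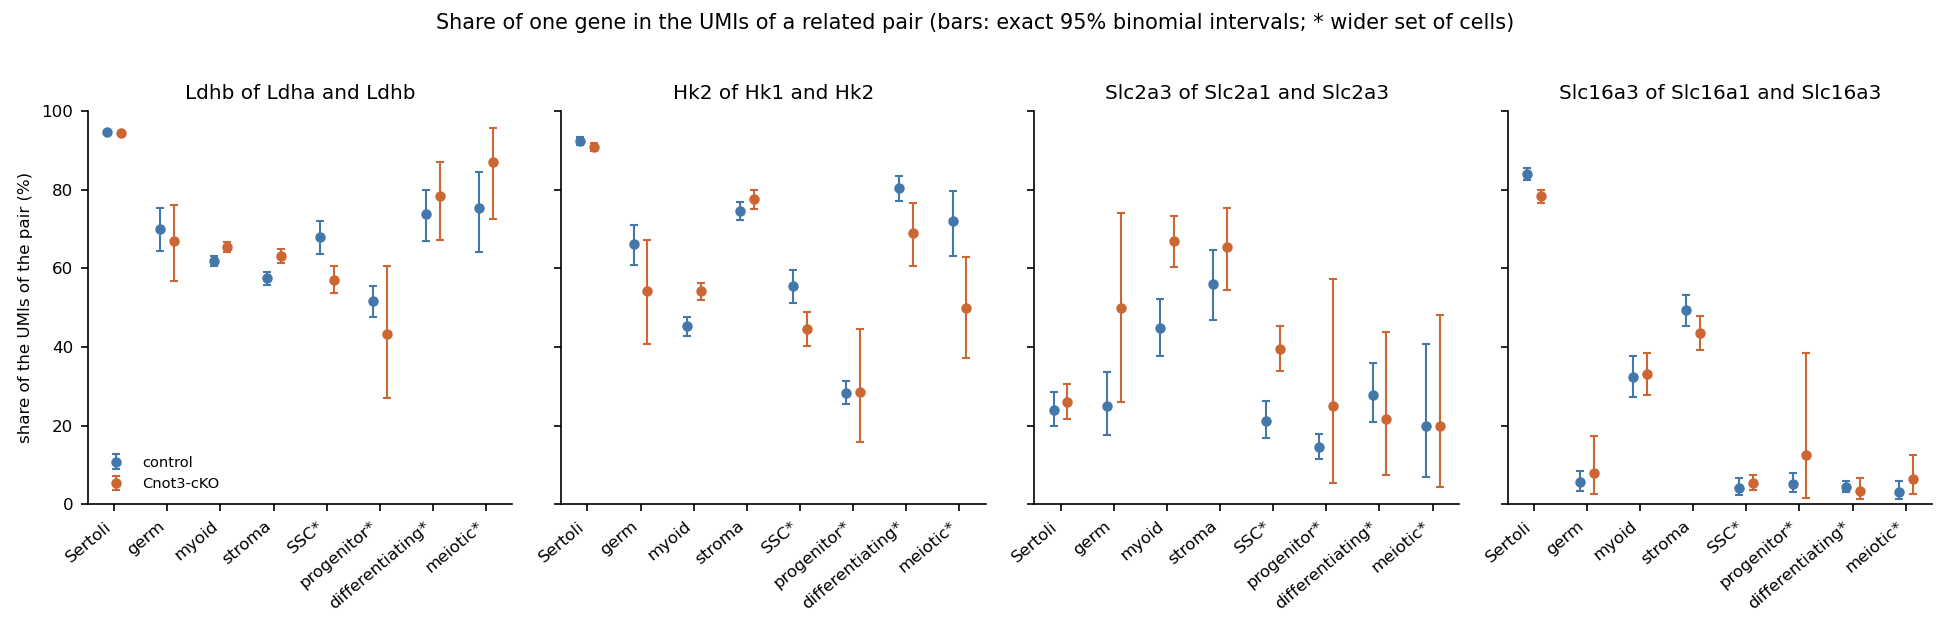
Share (percent of UMIs, vertical axis) of *Ldhb*, *Hk2*, *Slc2a3* and *Slc16a3* among the UMIs of both genes of their pair, by class and germ cell stage (horizontal axis), for both libraries, with 95% Clopper-Pearson intervals. Labels with an asterisk are stages of the wider set. *Slc16a3* made up 84.0% and 78.3% in Sertoli-like and 5.54% and 7.81% in germ-like cells, control first.

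Shares of cells with at least 1 UMI were read after thinning each cell to 7500 UMIs, with the unthinned share after them, and no cell was too shallow. *Ldhb* was found in 100% and 100% of Sertoli-like cells and 19.5% and 23.9% of germ-like cells (unthinned 100% and 100% and 45.6% and 43.7%). *Slc16a3* was found in 42.3% and 38.6% of Sertoli-like cells (unthinned 61.6% and 56.6%) and 3.32% and 5.63% of germ-like cells (unthinned 7.47% and 7.04%). *Slc2a1* was found in 54.5% and 54.1% of endothelial-like cells (unthinned 69.7% and 73.0%) and 8.71% and 4.23% of germ-like cells (unthinned 27.0% and 11.3%). The shares of germ-like cells with a UMI of *Ldhb* or *Slc16a3* were low beside those of Sertoli-like cells, and free RNA of both genes was present in the suspension.

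Within the germ line, stages were called stem cell-like (SSC-like, 247 and 290 cells of the wider set), progenitor-like (275 and 11), differentiating-like (282 and 64) and meiotic-like (146 and 60) from fixed marker lists, and the other germ-like cells stayed in unnamed clusters. Under the filters of the study no progenitor-like cluster formed, so stages are given in the wider set. In the control library, *Pkm* stood at 388 CPM in SSC-like, 335 in progenitor-like, 151 in differentiating-like and 25.5 in meiotic-like cells. The *Cnot3*-cKO library held 341, 209.8, 125 and 24.7 CPM, the same order. *Slc2a1* stood at 25.7 and 13.3 CPM in SSC-like, 37.4 and 16.0 in progenitor-like, 8.73 and 5.93 in differentiating-like and 4.18 and 5.59 in meiotic-like cells.

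Several other genes of the pathway were likewise lower in differentiating-like and meiotic-like cells than in SSC-like and progenitor-like cells of both libraries. *Slc2a3* stood at 6.91 and 8.67 CPM in SSC-like cells and 1.04 and 1.40 in meiotic-like cells. *Pfkp* stood at 12.3 and 22.6 CPM and 1.88 and 0.466 in these stages, and *Ldha* at 16.9 and 26.5 and 3.97 and 2.33. *Hk1* was highest in progenitor-like cells (52.8 and 53.3 CPM) and stood at 7.31 and 14.9 in meiotic-like cells.

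*Slc16a1* and *Hk2* were ordered otherwise. *Slc16a1* was highest in differentiating-like cells, with 69.0 and 67.6 CPM, then in meiotic-like cells with 53.4 and 48.4, and lower in SSC-like (35.5 and 41.1) and progenitor-like cells (28.3 and 24.9). *Hk2* was also highest in differentiating-like cells (42.6 and 31.0 CPM), so that the share of *Hk2* among hexokinase UMIs was 28.4% and 28.6% in progenitor-like and 80.5% and 69.1% in differentiating-like cells. *Ldhb* stood between 11.4 and 36.0 CPM in the 4 stages of the control library. *Slc16a3* was at or under 3.56 CPM in every stage of either library.

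**Figure D3:**
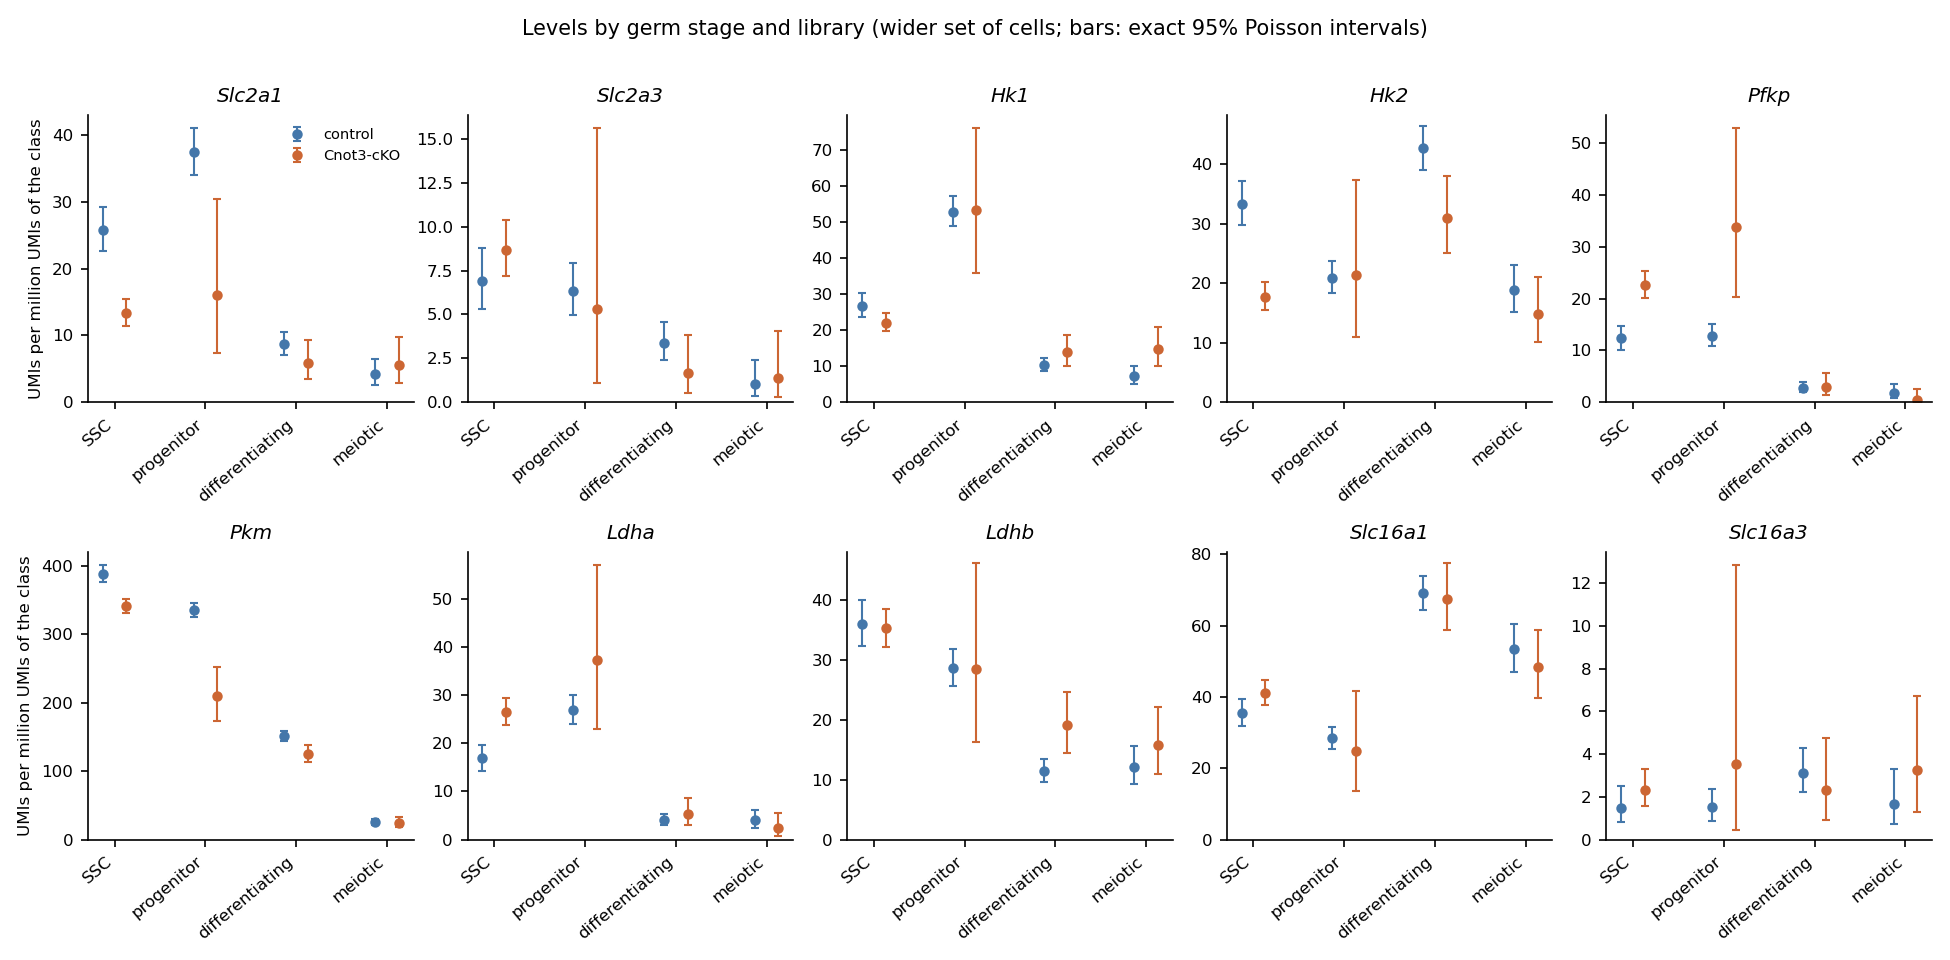
Level of each gene in CPM (vertical axis) by germ cell stage of the wider set (horizontal axis) in both libraries, with 95% Poisson intervals. *Pkm* and *Slc2a1* were lower in differentiating-like and meiotic-like than in SSC-like cells of both libraries, and *Slc16a1* was higher.

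To ask whether loss of *Cnot3* went with a change in these genes, the *Cnot3*-cKO library was set against the control library within each class. A gene was past the fold where its log2 ratio reached 0.5 either way, over genes with at least 100 UMIs in both libraries together. In germ-like cells, 7 of the 10 genes had enough UMIs. *Slc2a1* stood at 13.1 CPM in control (10.6 to 16.1) and 6.04 CPM in *Cnot3*-cKO (2.76 to 11.5), a log2 ratio of -1.12 (-2.29 to -0.13), from 93 and 9 UMIs. *Hk2* was also lower in *Cnot3*-cKO, at 33.3 and 21.5 CPM and a log2 ratio of -0.63 (-1.21 to -0.10). *Hk2* missed the fold, on the same side of 0, with a lower threshold for calling cells (-0.29), with libraries centred before clustering (-0.36), with the pathway genes kept in clustering or a finer clustering (-0.46 in both), with cells weighing equally (-0.48) and in barcodes gated on *Ddx4* and *Dazl* (-0.49), whereas *Slc2a1* was at or below -0.95 under every setting. Both were lower, beside 6.61% of all genes tested. The make-up of these germ-like cells differed between the libraries. Of the 241 control and 71 *Cnot3*-cKO cells, 66 and 35 were SSC-like and 97 and 16 differentiating-like. The part of that make-up in the ratios of germ-like cells under these filters was not tested.

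*Ldha* and *Ldhb* were higher in the *Cnot3*-cKO germ-like cells, beside 8.81% of genes. *Ldha* stood at 12.4 CPM in control (9.96 to 15.3) and 21.5 CPM in *Cnot3*-cKO (14.7 to 30.3), a log2 ratio of 0.79 (0.16 to 1.39), and was not past the fold in barcodes gated on *Ddx4* and *Dazl* (0.35). *Ldhb* stood at 29.1 and 43.6 CPM, a log2 ratio of 0.59 (0.16 to 0.99). With the germ-like clusters led by somatic genes left out, *Ldha* and *Slc2a1* had too few UMIs, *Ldhb* and *Hk2* were past the fold at 0.69 and -0.96, and *Slc16a1* was past it at -0.57. Over all genes 8.78% were then higher and 8.22% lower. The Sertoli markers in these cells summed to 56.2 and 104 CPM. With the empty-barcode profile subtracted, the log2 ratio of *Ldhb* was 1.44, and the part of Sertoli RNA in its difference was otherwise not tested.

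The 3 other genes with enough UMIs were not past the fold. *Pkm* stood at 215 CPM in control (205 to 227) and 228 CPM in *Cnot3*-cKO (205 to 254), a log2 ratio of 0.08 (-0.09 to 0.25). *Hk1* and *Slc16a1* had log2 ratios of 0.09 (-0.57 to 0.70) and -0.21 (-0.63 to 0.20). The median log2 ratio of the 7 genes was 0.08, beside 0.02 over all genes tested in germ-like cells.

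The wider set gave more UMIs, and all 10 genes passed the minimum in germ-like cells. *Slc2a1* stood at 22.1 CPM in control (20.9 to 23.4) and 11.2 CPM in *Cnot3*-cKO (9.93 to 12.5), a log2 ratio of -0.99 (-1.18 to -0.80), from 1254 and 290 UMIs. *Hk2* stood at 35.2 and 24.9 CPM and -0.50 (-0.63 to -0.37), at the threshold. These 2 were lower, beside 4.77% of genes. *Pfkp* was higher, at 8.47 CPM in control (7.73 to 9.27) and 16.3 CPM in *Cnot3*-cKO (14.7 to 17.9) and a log2 ratio of 0.94 (0.75 to 1.13), beside 9.38%. Under the filters of the study *Pfkp* had a log2 ratio of 1.17 (0.42 to 1.88), from 53 and 25 UMIs, under the minimum.

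*Ldha* stood at 18.1 and 24.0 CPM in the wider set, a log2 ratio of 0.41 (0.26 to 0.55), and *Ldhb* at 54.6 and 66.5 and 0.29 (0.20 to 0.37). Neither was past the fold there. *Pkm*, *Slc16a1* and *Hk1* had log2 ratios of 0.03 (-0.01 to 0.07), 0.03 (-0.07 to 0.13) and -0.37 (-0.51 to -0.23). *Hk1* was thus on opposite sides of 0 in the 2 sets of cells. The median log2 ratio of the 10 genes was 0.16, beside 0.02 over all genes tested. The make-up of the germ-like cells differed between the libraries, with 275 of 1333 progenitor-like in control and 11 of 560 in *Cnot3*-cKO, and the part of that make-up in these ratios is seen only in the values by stage. Without the clusters led by somatic genes, *Slc2a1*, *Hk2* and *Pfkp* of the wider set had log2 ratios of -0.95, -0.62 and 1.0. Over all genes 9.94% were then higher and 5.63% lower, and *Ldha* and *Ldhb* were again not past the fold. The Sertoli markers summed to 212 and 285 CPM in germ-like cells of the wider set and to 56.3 and 93.5 without those clusters. In control, *Ldhb* of all germ-like cells (54.6 CPM) stood above its level in each named stage. The part of Sertoli RNA in that level was not tested.

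**Figure D4:**
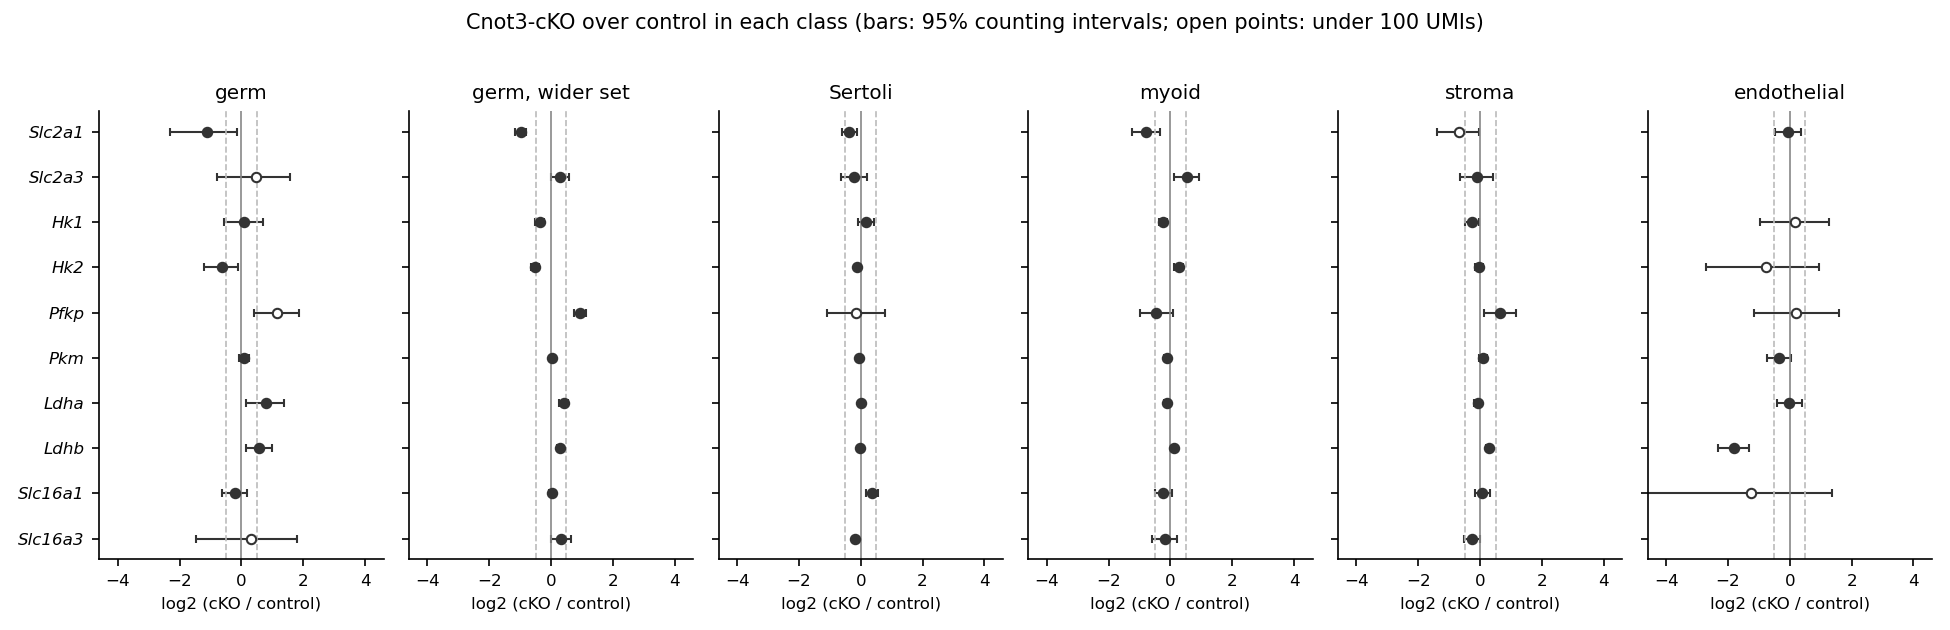
Log2 ratio of *Cnot3*-cKO over control (horizontal axis) for each gene by class, with exact 95% intervals for counting error. Open points rest on fewer than 100 UMIs, and dashed lines mark 0.5 either way. Ratios of Sertoli-like cells lay between the dashed lines for every gene with filled points, while *Slc2a1* and *Hk2* of germ-like cells lay below -0.5.

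The same comparison was made within each stage of the wider set. In SSC-like cells *Slc2a1* stood at 25.7 CPM in control (22.6 to 29.2) and 13.3 CPM in *Cnot3*-cKO (11.4 to 15.4), a log2 ratio of -0.95 (-1.24 to -0.67), and *Hk2* at 33.3 and 17.7 CPM, a log2 ratio of -0.91 (-1.16 to -0.66). Both were lower, beside 6.88% of genes. *Pfkp* (12.3 and 22.6 CPM, 0.87 (0.56 to 1.19)) and *Ldha* (16.9 and 26.5 CPM, 0.65 (0.38 to 0.93)) were higher, beside 12.5%. *Pkm* had a log2 ratio of -0.19 and *Ldhb* of -0.03.

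The SSC-like cells of the 2 libraries came largely from different clusters. A cluster led by *Lhx1*, *Tcl1* and *Foxc2* held 245 control and 39 *Cnot3*-cKO cells, and a cluster led by *Nefm*, *Krt18* and *Id4* held 2 and 251. Within the first, *Hk2* stood at 32.8 CPM in control (29.2 to 36.7) and 17.6 CPM in *Cnot3*-cKO (11.9 to 25.2), a log2 ratio of -0.89 (-1.49 to -0.35), while *Slc2a1* had one of -0.48 (-1.07 to 0.07). *Pfkp* (12.2 and 10.6 CPM, -0.21 (-1.01 to 0.52)) and *Ldha* (16.4 and 11.2 CPM, -0.55 (-1.32 to 0.14)) were not higher in *Cnot3*-cKO there. In the second cluster the *Cnot3*-cKO cells held 24.3 CPM of *Pfkp*, 28.8 of *Ldha*, 12.6 of *Slc2a1* and 17.7 of *Hk2*. The higher *Pfkp* and *Ldha* thus lay in the cluster that held nearly no control cells, where genotype and cluster cannot be told apart. *Slc2a1* was short of the fold in the first cluster, so that its ratio over all SSC-like cells rests in part on the second. *Hk2* stood at 17.6 CPM in the *Cnot3*-cKO cells of the first cluster and 17.7 in those of the second, which had only 2 control cells to set against them.

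In progenitor-like cells, which were 11 in the *Cnot3*-cKO library, *Slc2a1* stood at 37.4 and 16.0 CPM from 449 and 9 UMIs, a log2 ratio of -1.23 (-2.36 to -0.29). *Pkm* was also lower, at 335 and 209.8 CPM and -0.67 (-0.95 to -0.41), and *Pfkp* higher, at 12.8 and 33.8 CPM and 1.40 (0.63 to 2.09). The background there was 12.2% of genes higher and 16.8% lower. In differentiating-like cells *Slc2a1* was lower, at 8.73 and 5.93 CPM and -0.56 (-1.37 to 0.17), and *Ldhb* higher, at 11.4 and 19.1 CPM and 0.75 (0.28 to 1.20), beside 4.26% and 4.98%, and the interval of *Slc2a1* held 0. In meiotic-like cells 0 of 3 genes tested were past the fold, beside 1.93% higher and 2.37% lower over all genes.

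In Sertoli-like cells, at which the recombinase was not aimed, 0 of the 9 genes tested were past the fold in either direction. Over all genes 1.80% were higher and 1.13% lower. *Ldhb* had a log2 ratio of -0.02 (-0.04 to 0.00), *Pkm* of -0.04 (-0.09 to 0.01) and *Ldha* of 0.02 (-0.07 to 0.11). *Hk2* stood at -0.11 and *Slc16a3* at -0.17 (-0.26 to -0.08). The largest ratios were those of *Slc16a1*, at 16.3 CPM in control (14.6 to 18.1) and 21.1 CPM in *Cnot3*-cKO (19.3 to 23.0) and 0.37 (0.17 to 0.57), and *Slc2a1*, at -0.37 (-0.60 to -0.13). The median of the 9 was -0.04, beside 0.04 over all genes tested.

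The monocarboxylate transporters were also read in each of the 3 clusters of Sertoli-like cells, with no background share for single clusters. In a cycling cluster led by *Ube2c* (254 and 275 cells), *Slc16a1* stood at 20 and 30 CPM and *Slc16a3* at 77.3 and 63.0, log2 ratios of 0.58 (0.21 to 0.97) and -0.30 (-0.52 to -0.08). In a cluster led by *Cidea* (282 and 344 cells), they stood at 26.1 and 37.2 and 68.3 and 50.4, log2 ratios of 0.51 (0.16 to 0.87) and -0.44 (-0.69 to -0.18). In a cluster led by *Hsd17b1* (864 and 1106 cells), they stood at 11.5 and 13 and 94.7 and 88.5, log2 ratios of 0.18 (-0.14 to 0.51) and -0.10 (-0.21 to 0.02), and both intervals of this largest cluster held 0. *Ldhb* differed little among these clusters, from 1485 and 1545 CPM in the cycling cluster to 1624 and 1571 in the *Hsd17b1* cluster. The share of *Slc16a3* in the transporter pair was 79.5% and 67.8% in the cycling cluster, 72.4% and 57.5% in the *Cidea* cluster and 89.2% and 87.2% in the *Hsd17b1* cluster.

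Myoid-like cells differed past the fold in both glucose transporters, 1 each way. *Slc2a1* stood at 6.13 and 3.53 CPM and -0.79 (-1.25 to -0.35), beside 1.49% of genes lower. *Slc2a3* stood at 4.98 and 7.17 CPM and 0.53 (0.13 to 0.93), beside 1.70% higher. The share of *Slc2a3* in the pair was 44.8% and 67.0%, from 87 and 144 *Slc2a3* and 107 and 71 *Slc2a1* UMIs. The median of the 10 genes was -0.16, beside -0.01 over all genes tested, and turned to 0.18 at Leiden resolution 1.0, where *Pfkp* (0.65) was past the fold as well. The hexokinase share moved as well, with *Hk2* making up 45.2% in control (42.8 to 47.6) and 54.1% in *Cnot3*-cKO (51.9 to 56.4).

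In stroma-like cells, *Pfkp* was past the fold at 3.68 and 5.74 CPM and 0.64 (0.13 to 1.16), beside 1.34% of genes higher, and 0 of 9 genes were past it the other way, beside 0.935%. With the stroma-like cells of the wider set, *Pfkp* was not past it, at a log2 ratio of 0.32. In the 33 and 37 endothelial-like cells, *Ldhb* stood at 356 CPM in control (304 to 414) and 101 CPM in *Cnot3*-cKO (74.3 to 135), a log2 ratio of -1.81 (-2.31 to -1.33), beside 5.32% of genes lower. Of the 9 Sertoli markers, 8 were found in the control endothelial-like cells and 6 in those of *Cnot3*-cKO, and they summed to 1541 and 119 CPM, moving with *Ldhb*. The endothelial markers summed to 4259 and 4395 CPM in the same cells, and the part of the Sertoli markers in the *Ldhb* difference was not tested. *Slc2a1* had a log2 ratio of -0.05 (-0.47 to 0.37) there. None of the 4 genes tested there was past the fold in the other direction, beside 6.35%.

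The rest of the pathway was read from 9 lists of 75 genes, all of them in the files. In germ-like cells, 39 were tested, 6 were higher in *Cnot3*-cKO and 0 lower, beside the 8.81% and 6.61% of all genes given above. *Eno3*, an enolase, stood at 11.9 and 26.9 CPM (1.18 (0.60 to 1.74)) and *Tkt*, the transketolase of the pentose phosphate pathway, at 26.1 and 40.3 (0.63). *Emb*, which encodes the MCT partner embigin, stood at 18.2 and 32.9 (0.85), and *Mpc1* and *Pdk1*, of pyruvate entry into mitochondria, at 64.5 and 92.0 and 56.3 and 83.9. *Ddit4*, a stress-induced gene listed among hypoxia targets, stood at 17.1 and 37.6 (1.14). In the wider set the calls of *Ddit4* (-0.22, on the other side of 0), *Mpc1* (0.14) and *Pdk1* (0.11) were lost.

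In the wider set 54 of the 75 were tested in germ-like cells, with 5 higher and 3 lower, beside 9.38% and 4.77% of all genes. *Eno3*, *Emb* and *Tkt* were past the fold there too, at 0.95, 0.65 and 0.72. *Tigar*, a phosphatase that lowers fructose 2,6-bisphosphate, stood at 29.7 and 46.2 CPM (0.64). *Ldhc*, the lactate dehydrogenase subunit of the germ line, was higher, at 3.05 and 9.44 CPM and 1.63 (1.34 to 1.92). *Slc2a12* (1.75 and 0.578 CPM), *Pfkfb3* (1.96 and 1.35) and *Egln3* (12.4 and 8.52) were lower. In Sertoli-like cells 0 of 49 tested were past the fold, beside 1.80% of all genes higher and 1.13% lower. In myoid-like cells 1 of 50, *Pfkfb2* (2.69 and 4.13 CPM), was higher and 0 were lower, beside 1.70% and 1.49%. In stroma-like cells *Pdk4* (3.68 and 6.18) was higher and *Slc16a7* (5.80 and 3.72) lower among 50, beside 1.34% and 0.935%.

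Between classes, 11 other glycolytic enzymes were tested in Sertoli-like over germ-like cells. *Pfkl*, *Pfkm*, *Aldoa*, *Tpi1* and *Pgk1* were higher and *Gpi1*, *Aldoc* and *Eno3* lower, beside the background given above. *Aldoa* stood at 529 and 551 CPM in Sertoli-like and 194 and 267 in germ-like cells, and *Gpi1*, the glucose 6-phosphate isomerase, at 68.0 and 62.5 and 321 and 351. *Mpc2*, a subunit of the mitochondrial pyruvate carrier, stood at 162 and 167 CPM in Sertoli-like and 617 and 614 in germ-like cells and was lower in the former together with *Pdha1*, of 8 genes of pyruvate entry tested. Of 11 citric acid cycle genes, *Cs* and *Mdh2* were lower in Sertoli-like cells and 0 were higher.

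Genes with the most similar pattern were found by Pearson's r of log2(CPM + 1) over 12 profiles (6 named classes, macrophage-like cells included, in both libraries) among 6963 genes. These r values are descriptions, since the profiles share libraries and differ in depth. *Smim1* was the gene most like both *Hk2* (r = 0.963) and *Slc16a3* (r = 0.946). *Hk2* and *Slc16a3* had the highest r of all pairs among the 10 genes (r = 0.943), and each was among the 3 genes most like the other. *Slc2a1* was most like *Kdr* (r = 0.962), the endothelial VEGF receptor gene, *Ldhb* most like *Gstm2* (r = 0.988), *Ldha* most like *Lpar6* (r = 0.985) and *Slc16a1* most like *Wdr60* (r = 0.972). *Hk1* was most like *Csrp2* (r = 0.965), *Pfkp* *Fxyd5* (r = 0.959), *Pkm* *Psmd8* (r = 0.963) and *Slc2a3* *Arl5a* (r = 0.909).

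Because *Hk2* and *Slc16a3* moved together across classes, their promoters are shown. Windows from 250 bases before to 50 after the start were taken from RefSeq promoters of GRCm38.p6, which held 9 of the 10 genes. They were searched on both strands for ACGTG, a core bound by hypoxia-inducible factors, and for no other form of it. Of 32851 windows of that length, 6447 (19.6%) held it. Each line gives 25 bases, 5′ to 3′ on the strand of the gene, with the core, or its reverse complement CACGT, in capitals.
*Hk2* promoter window at chr6:82774666-82774690, minus strand: ccacggaacaCACGTcccaactctg
*Hk2* promoter window at chr6:82774492-82774516, minus strand: tgagcacatcCACGTcactgtccgg
*Slc16a3* promoter window at chr11:120949030-120949054, plus strand: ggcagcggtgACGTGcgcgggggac
*Slc16a3* promoter window at chr11:120949043-120949067, plus strand: tgcgcgggggACGTGccgcgcgacg
*Slc2a1* promoter window at chr4:119108699-119108723, plus strand: cccgccccggACGTGctccccaggc
*Ldha* promoter window at chr7:46845747-46845771, plus strand: cccagcctacACGTGggttcccgca

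The *Hk2* cores begin 226 and 52 bases before the start, the *Slc16a3* cores 27 and 14 bases before it, and the *Slc2a1* core 36 bases before it. *Ldha* held 5 matches in 1 of its 2 windows, of which 2 pairs overlap on opposite strands, as in the line shown. *Slc16a1* held 3 matches, an overlapping pair among them, *Hk1* and *Pkm* 2 each in 1 of 2 windows, and *Pfkp* and *Ldhb* none. Matches were thus found in 7 of 12 windows, beside the 19.6% of all windows, and in 7 of the 9 genes, beside 21.8% of the 27025 genes with a window. A match describes these letters only and is no measure of binding.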

How the data were processed

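CD9+/THY1+ cells of 4 P8 testis samples (2 control and 2 *Cnot3*-cKO) were sequenced as 10x Genomics 3′ tags. The authors deposited unnormalised UMI counts for each gene in each barcode, made with Cell Ranger 3.0.1 on mm10, as the submitters' processing notes list, with the Ensembl 93 annotation per the study's methods. A matrix holds both samples of its genotype together and lists every barcode. Aligner settings, strand included, were not given in the sources used here. Genotype labels set the groups.

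Barcodes were called as cells by the order-of-magnitude rule with 3000 expected cells (thresholds of 7977 and 7664 UMIs), which gave 8341 and 9336, and the filters of the study followed. Both resulting numbers lie above the cell numbers the study gives. Scrublet called 5.83% and 4.92% of barcodes doublets, and these were left out only as an alternative. Of the called barcodes, 18 sequences were shared by both libraries, beside 11.5 that chance gives. Cells were clustered with scanpy 1.11.5 (Python 3.11.15) on 2500 variable genes, 30 components, 15 neighbours and Leiden resolution 0.5, leaving out the 10 genes and 75 listed pathway genes. How clusters were scored for names was settled after the data were seen.

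UMIs were summed per class and given per 1000000 (CPM), with exact Poisson, conditional and Clopper-Pearson intervals (scipy 1.17.1). A count of 0 allows up to 3 counts. The text names the 10 genes, the listed genes past a threshold or paired with a member by function, and the genes most like each member among those with a mean of at least 20 CPM over the profiles. The genes and lists were chosen with earlier results of these data known. Ratios and intervals were tested on simulated data. The simulated counts were independent Poisson counts, as the intervals assume, so spread between cells or animals was not covered. Alternatives numbered 15, with 2 more chosen after seeing the data.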

Additional observations from a re-analysis of the deposited data

How the results depend on the processing

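No paired analysis was possible because each matrix merges both samples of a genotype, and for the same reason no replicate could be left out. Over all settings, no value of the 10 genes that was past the fold under the main setting (the filters of the study and the settings given above) changed sign. Values past the fold under another setting did. *Slc16a1* of germ-like cells was -0.57 without the clusters led by somatic genes and 0.04 in barcodes gated on *Ddx4* and *Dazl*. *Pfkp* of myoid-like cells was -0.46 under the main setting and 0.65 at Leiden resolution 1.0. The count of genes past the fold in germ-like cells, 4 in the text, was 2 without doublets, 2 in barcodes gated on 10 UMIs of *Ddx4* plus *Dazl*, 1 with the empty-barcode profile subtracted and 1 at a log2 ratio of 1. It was 5 with a minimum of 20 UMIs. In the wider set the genes past the fold were *Slc2a1*, *Hk2* and *Pfkp*, without *Ldha* and *Ldhb*. The count in myoid-like cells, 2 in the text, was 0 at a log2 ratio of 1 and 3 at Leiden resolution 1.0. That in stroma-like cells, 1 in the text, was 0 in the wider set, at Leiden resolution 1.0 and at a log2 ratio of 1, and 2 with a minimum of 20 UMIs or none. That in endothelial-like cells, 1 in the text, was 3 with no minimum. The count of genes lower in Sertoli-like than germ-like cells, 1 in the text, was 2 in the wider set, with or without the germ clusters led by somatic genes, with cells weighing equally, and under the same gate. For these the cause was not tested. The Sertoli-like count was 0 under every setting tried.

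Among single genes, log2 ratios in germ-like cells ranged over settings from -1.29 to -0.95 for *Slc2a1*, from -1.06 to -0.29 for *Hk2*, from 0.93 to 1.32 for *Pfkp*, from 0.35 to 1.10 for *Ldha* and from 0.29 to 1.44 for *Ldhb*. *Ldhb* in endothelial-like cells was -0.71 in the wider set and -1.22 with cells weighing equally, against -1.81. In myoid-like cells at Leiden resolution 1.0, *Pfkp* turned to 0.65, *Slc16a1* to 0.37, *Slc16a3* to 0.27 and the median of the genes to 0.18. Scaling by median ratios moved no class by more than 0.061 on the log2 scale. Depth limited *Slc2a3*, *Slc16a3* and *Pfkp* in germ-like cells, and every endothelial-like value.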
